A study of Homo sapiens with 12 samples.

Results

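The libraries of MDA-MB-231 cells depleted of NELFA were set directly against those depleted of YAP, gene by gene, without any control library. The MDA-MB-231 line was derived from a breast tumour without hormone receptors or amplified HER2 and has a mesenchymal gene programme. Of the 12 RNA-seq libraries of the series, 6 entered the comparison, 3 transfected with a pool of siRNAs against NELFA (siNELFA) and 3 with a pool against YAP1 (siYAP), and the other 6, from control and double knockdown cells, were not used. Both pools were given at 50 to 100 nM under the same protocol, and the study's methods give 72 hours of knockdown and 3 independent biological replicates, while the sample labels name RNA from 48 and 72 hours without saying which libraries each covers. Members were the 17257 of 58051 listed genes with enough counts to be tested, and siNELFA and siYAP libraries with the same replicate number were treated as a pair.

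NELF, the negative elongation factor, is a complex of 4 kinds of subunit (NELFA, NELFB, NELFCD and NELFE) that holds RNA polymerase II a short way downstream of the start site until the kinase P-TEFb, a dimer of CDK9 and a T-type cyclin, releases it into elongation. YAP, the product of YAP1, is a transcriptional coactivator that binds DNA through the TEAD factors, and the Hippo kinases LATS1 and LATS2 keep it out of the nucleus. CTGF, CYR61 and ANKRD1 are its textbook targets, and YAP also induces several of its own inhibitors. Because neither group is a control, a gene that was higher in siNELFA may have risen with the loss of NELFA, fallen with the loss of YAP, or both, and these cannot be told apart here.

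The 250 bases before the start site of 7 genes that passed the test are shown first, as RefSeq gives them on GRCh38.p14, because they hold letters that TEAD, NF-kB or AP-1 factors are known to recognise. They are written 5′ to 3′ on the strand of the gene. In the first 3, capitals mark GGAATG, the core that TEAD factors bind, or its reverse complement CATTCC. In CXCL8, CXCL1 and IL6, capitals mark GGANTTTCC, a form of the NF-kB element, and in CXCL8 and IL11 they mark TGANTCA, the AP-1 element. Both strands were searched, and no marked site overlapped another. CTGF lies on the minus strand (chr6:131951373-131951622) and held 3 TEAD cores, beginning 169, 104 and 95 bases before the start. ANKRD1, also on the minus strand (chr10:90921088-90921337), held 2. TGFB2 on the plus strand (chr1:218345086-218345335) held 1 in the reverse orientation. CXCL8 (chr4:73740319-73740568), CXCL1 (chr4:73869143-73869392) and IL6 (chr7:22726950-22727199), all on the plus strand, held 1 NF-kB element each, and CXCL8 had an AP-1 element upstream of it. IL11 on the minus strand (chr19:55370464-55370713), the 1 gene of the inflammatory list called lower in siNELFA, held an AP-1 element.
CTGF: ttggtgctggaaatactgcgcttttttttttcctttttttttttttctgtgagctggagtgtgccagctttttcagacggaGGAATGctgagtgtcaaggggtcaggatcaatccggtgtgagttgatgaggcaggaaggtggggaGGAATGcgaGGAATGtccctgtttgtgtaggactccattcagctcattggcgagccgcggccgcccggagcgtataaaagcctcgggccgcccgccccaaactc
ANKRD1: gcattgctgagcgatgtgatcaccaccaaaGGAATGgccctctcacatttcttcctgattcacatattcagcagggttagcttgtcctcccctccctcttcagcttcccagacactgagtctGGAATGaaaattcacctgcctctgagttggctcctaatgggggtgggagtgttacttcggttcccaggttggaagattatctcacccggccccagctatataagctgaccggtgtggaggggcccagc
TGFB2: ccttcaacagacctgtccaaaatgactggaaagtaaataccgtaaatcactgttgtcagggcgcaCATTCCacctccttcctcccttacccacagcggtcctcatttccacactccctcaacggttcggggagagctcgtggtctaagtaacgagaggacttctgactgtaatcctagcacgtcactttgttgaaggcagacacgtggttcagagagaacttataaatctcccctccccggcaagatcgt
CXCL8: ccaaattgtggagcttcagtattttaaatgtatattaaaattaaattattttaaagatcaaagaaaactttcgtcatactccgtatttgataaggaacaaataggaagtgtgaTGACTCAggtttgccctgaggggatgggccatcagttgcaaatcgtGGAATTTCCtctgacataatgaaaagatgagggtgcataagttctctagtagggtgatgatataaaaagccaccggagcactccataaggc
CXCL1: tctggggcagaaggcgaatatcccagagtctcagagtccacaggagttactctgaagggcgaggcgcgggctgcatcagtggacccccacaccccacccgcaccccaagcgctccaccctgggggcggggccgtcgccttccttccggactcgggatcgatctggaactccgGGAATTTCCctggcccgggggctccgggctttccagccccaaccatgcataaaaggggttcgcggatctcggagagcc
IL6: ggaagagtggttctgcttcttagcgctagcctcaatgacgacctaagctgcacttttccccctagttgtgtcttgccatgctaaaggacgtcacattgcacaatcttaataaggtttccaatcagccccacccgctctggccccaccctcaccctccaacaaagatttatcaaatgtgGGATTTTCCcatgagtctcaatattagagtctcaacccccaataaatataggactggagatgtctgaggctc
IL11: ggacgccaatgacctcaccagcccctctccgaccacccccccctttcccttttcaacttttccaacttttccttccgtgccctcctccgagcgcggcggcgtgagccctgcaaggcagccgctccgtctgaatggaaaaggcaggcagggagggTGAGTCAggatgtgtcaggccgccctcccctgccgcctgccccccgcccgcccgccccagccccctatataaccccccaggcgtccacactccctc

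Over the 27305 RefSeq promoters of the same length, 11.9% held GGAATG, 1.47% held GGANTTTCC and 6.60% held TGANTCA. Among YAP and TEAD target genes the TEAD core was in 6 of the 16 promoters that could be matched, and among inflammatory genes the NF-kB element was in 9 of 20. Of the members called higher in siNELFA, 4 of 11 held the TEAD core (36.4%, against 37.5% of those tested). For the NF-kB element it was 6 of 14 (42.9%, against 45%). The lists name known targets of these factors, so such shares do not bear on the difference between the knockdowns. Over all tested protein-coding genes, GGAATG was in 9.51% of the 10445 promoters that could be matched and GGANTTTCC in 1.59%. GGAATG was in 10.2% of the 1078 promoters of genes higher in siNELFA and in 9.57% of the 961 of those lower, while GGANTTTCC was in 2.41% and 0.624%. A match is a stretch of letters and does not show that a factor binds there.

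The targeted transcripts were examined first, as a check of the labels. NELFA (ENSG00000185049, chr4:1982717-2041903) was at 9.94, 9.0 and 7.11 CPM (counts relative to the scaled size of the library) in siNELFA replicates 1 to 3 and at 33.6, 25.1 and 22 CPM in siYAP replicates 1 to 3. Every siNELFA library was below every siYAP library, and the means were 8.69 ± 1.44 and 26.9 ± 6.03 CPM (SD, n = 3), a 3.07-fold difference (log2 fold change of siNELFA over siYAP -1.62, SE 0.15, edgeR adjusted p = 5.15e-08). YAP1 (ENSG00000137693, chr11:102110447-102233424) was at 291, 246 and 254 CPM in siNELFA and 46.0, 45.2 and 37.3 CPM in siYAP, in the same order. The groups did not overlap, and YAP1 was 6.16-fold higher in siNELFA (log2 2.62, SE 0.09, edgeR adjusted p = 7.56e-16). Each group thus carried the lower level of the transcript that its label names. Without the pairing YAP1 kept its call (edgeR adjusted p = 0.0117) and NELFA did not (edgeR adjusted p = 0.453).

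The 6 libraries held 10727090 to 17717720 counts, and in each pair the siNELFA library was the deeper. Replicate 1 of both groups stood apart from replicates 2 and 3, with 9.0% to 9.96% of its counts in its 10 most abundant genes against 6.78% to 7.50% in the others. Mesenchymal and MDA-MB-231 markers (VIM, CD44, EGFR, AXL, FOSL1 and SPARC) were all expressed. The luminal markers ESR1, PGR and FOXA1 reached at most 6, 2 and 2 counts in any library. The other 5 of the 8 luminal and epithelial markers (GATA3, ERBB2, GRB7, EPCAM and CDH1) had enough counts to be tested. Of these, 1, CDH1, was called higher in siNELFA. The markers of HEK293-type cells, PAX2, LIN28B and NEFM, had no count. Among markers of blood, vessel and fat cells, PTPRC, CD3E, CDH5 and ADIPOQ had at most 4 counts, and CD14 was detected at 34.4, 5.73 and 3.64 CPM in siNELFA and 14.2, 2.69 and 2.08 CPM in siYAP, highest in replicate 1 of both groups.

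The knockdowns parted at 2721 of the 17257 genes tested (15.8%), by edgeR's quasi-likelihood test on pairs (replicate number fitted as a block, Benjamini-Hochberg adjusted p under 0.05). Of these, 1437 genes (8.33%) were higher and 1284 (7.44%) were lower in siNELFA. Most of the differences were small. Of the calls, 90.6% were under 2-fold, the median log2 fold change was 0.42 among the higher and -0.51 among the lower genes, and 100 genes were at least 2-fold higher and 157 at least 2-fold lower. The 3 libraries of one group lay above all 3 of the other for 2176 of the genes tested (12.6%). All 3 pairs pointed in one direction for 2678 of the 2721 genes. The genes were called from these same pairs, so this agreement is largely built in and is not separate support. Across 12994 genes averaging at least 50 counts, the log2 ratios of different pairs, which share no library, correlated by 0.443 to 0.598. These correlations are across genes, which are not independent replicates. The calls rested on the pairing. In the same fit without it 2 genes passed, YAP1 and ALDH9A1, with 972 at an unadjusted p under 0.05, and the biological coefficient of variation was 0.342 against 0.103 with the pairing. Without the replicate 3 pair 1028 genes passed, 998 of them among the 2721, and without the replicate 1 or replicate 2 pair 2630 and 2615 passed. The p-values measure only the spread between these libraries.

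**Figure D1:**
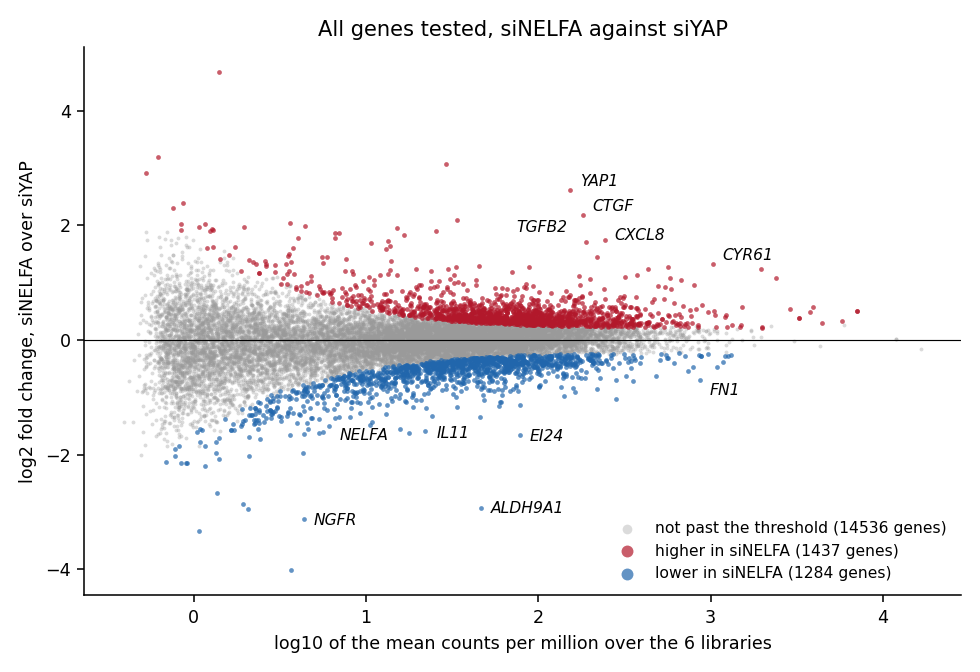
Each point is 1 of the 17257 genes tested, with log10 of its mean CPM over the 6 libraries on the x axis and its log2 fold change of siNELFA over siYAP on the y axis. The 1437 genes higher in siNELFA are red, the 1284 lower are blue, and most calls lie within 1 log2 unit of 0.

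Among factors of pausing and elongation, NELFA itself was the member that differed most, and the transcripts of the other NELF subunits did not pass the threshold. Of 18 genes tested, 5 were higher and 1, NELFA, was lower in siNELFA, the median log2 fold change being 0.05 beside -0.0021 over all genes tested. NELFB, NELFCD and NELFE had log2 fold changes of -0.15, -0.13 and 0.03 (edgeR adjusted p = 0.296, 0.345 and 0.878). The 5 that were higher were ELL2, AFF1, ELL, SUPT4H1 and CCNT2. ELL2, an elongation factor of the super elongation complex, was at 223, 151 and 188 CPM in siNELFA and 165, 112 and 135 CPM in siYAP (1.36-fold, edgeR adjusted p = 0.000415). AFF1, a scaffold of the same complex, was 1.25-fold higher, ELL 1.32-fold, SUPT4H1, the small subunit of DSIF, 1.33-fold, and CCNT2, a cyclin partner of CDK9, 1.29-fold. CDK9 (log2 0.22), CCNT1 (0.26), SUPT5H (0.01), AFF4 (-0.13) and the 7SK particle proteins HEXIM1 (-0.21), HEXIM2 (0.22), LARP7 (-0.08) and MEPCE (-0.29) did not pass the threshold. When replicate 3 was left out, 1 gene of the list was higher and 1 lower.

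In the Hippo pathway the genes that were higher in siNELFA were mainly upstream regulators and inhibitors of YAP, and none of the TEAD genes passed the threshold. Of 20 genes tested, 7 were higher and 1 was lower in siNELFA, at a median log2 fold change of 0.20, and the list includes YAP1, the target of one of the pools. AMOTL2, an angiomotin that retains YAP outside the nucleus, was at 168, 185 and 204 CPM in siNELFA and 104, 120.0 and 109 CPM in siYAP. Its groups did not overlap (1.68-fold, edgeR adjusted p = 1.58e-06). WWC1 (KIBRA), an activator of the LATS kinases, was 1.62-fold higher (edgeR adjusted p = 5.77e-06), the protocadherin FAT1 1.56-fold (edgeR adjusted p = 2.99e-06), SAV1, the scaffold of the MST kinases, 1.41-fold and LATS2 1.36-fold. VGLL3, a TEAD cofactor, was at 33.9, 22.5 and 42.4 CPM in siNELFA and 12.7, 16.5 and 21.6 CPM in siYAP (1.91-fold, edgeR adjusted p = 0.000113). The other angiomotin tested, AMOTL1, went the other way (-0.36, edgeR adjusted p = 0.00314).

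The TEAD factors did not pass the threshold, with log2 fold changes of -0.14 for TEAD1, -0.29 for TEAD2, 0.19 for TEAD3 and 0.26 for TEAD4. WWTR1, encoding TAZ, was at 74.5, 84.0 and 80.1 CPM in siNELFA and 74.4, 106 and 102 CPM in siYAP (log2 -0.23, SE 0.09, edgeR adjusted p = 0.101). Its groups overlapped in replicate 1, and the difference did not pass the threshold. LATS1, STK3, STK4, MOB1A, MOB1B, NF2 and VGLL4 had log2 fold changes from -0.07 to 0.21, also short of the threshold. Excluding replicate 3, 5 genes of the list were higher and none was lower.

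YAP and TEAD target genes were mostly higher in siNELFA. Of 22 tested, 15 were higher and 1, IGFBP3, was lower in siNELFA, with a median log2 fold change of 0.46. LATS2 and AMOTL2 are counted both here and in the Hippo list. TGFB2 is also counted among the TGF-beta pathway genes below, GADD45A among the genes that respond to p53, and AXL among the MDA-MB-231 markers. CTGF, a secreted matricellular protein, was at 266, 276 and 350.1 CPM in siNELFA and 53.9, 77.9 and 64.2 CPM in siYAP. The lowest siNELFA library lay well above the highest siYAP library, and the fold was 4.56 (log2 2.19, SE 0.10, edgeR adjusted p = 1.44e-13). CYR61, its close relative, was at 2078, 1053 and 1312 CPM and 725, 475 and 519.9 CPM, a 2.52-fold difference (log2 1.33, SE 0.08, edgeR adjusted p = 4.16e-11). ANKRD1, a muscle ankyrin repeat protein, differed less, at 418, 332 and 321 CPM in siNELFA and 296, 207 and 168 CPM in siYAP (1.63-fold, log2 0.70, SE 0.09, edgeR adjusted p = 3.27e-06). The 3 promoters shown above with TEAD cores thus belonged to genes that differed 4.56-fold (CTGF), 3.27-fold (TGFB2) and 1.63-fold (ANKRD1), and the promoter of CYR61 was not analysed here.

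The other targets covered a wide range of size. TGFB2, a TGF-beta ligand, was 3.27-fold higher in siNELFA, the kinase NUAK2 2.23-fold, GADD45A 1.91-fold, tissue factor F3 1.86-fold and the secreted protein FJX1 1.73-fold (edgeR adjusted p from 8.79e-12 to 0.000395). F3 was at 1150.3, 484 and 669 CPM in siNELFA and 614, 292 and 321 CPM in siYAP, so that its groups overlapped between replicates while each pair pointed the same way. RBMS3, CRIM1, ARHGEF17, TJP1 and AXL were higher by 1.54-fold, 1.38-fold, 1.31-fold, 1.24-fold and 1.18-fold. Targets that did not pass were PTPN14 (log2 -0.06), ASAP1 (0.09), MYOF (0.05), NT5E (0.02), DLC1 (-0.09) and FOXF2 (0.30). IGFBP3, which binds insulin-like growth factors, was at 84.1, 16.1 and 7.34 CPM in siNELFA and 128, 27.1 and 13.4 CPM in siYAP and was lower in siNELFA in each pair (log2 -0.72, edgeR adjusted p = 8.17e-05), though it varied more between replicates than between the groups. In replicates 1 and 2 alone, 11 of the list were higher and 1 lower.

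Most cytokines and other genes induced by NF-kB were higher in siNELFA. Of 26 tested, 17 were higher and 1, IL11, was lower in siNELFA, with a median log2 fold change of 0.55 (0.44 without the replicate 1 pair, where that of YAP and TEAD targets was 0.56). CXCL8 (interleukin 8), a neutrophil attractant, was at 569, 183 and 389 CPM in siNELFA and 139, 70.1 and 109.6 CPM in siYAP, with no overlap (3.37-fold, log2 1.75, SE 0.10, edgeR adjusted p = 8.14e-12). IL6, a pleiotropic cytokine, was at 457, 194 and 292 CPM and 219, 65.0 and 87.1 CPM. Replicate 1 was the highest in both groups and its siYAP value passed that of siNELFA replicate 2, but IL6 was higher in siNELFA in each pair (2.75-fold, edgeR adjusted p = 3.54e-10). CXCL1, another neutrophil attractant, was 2.41-fold higher at 122, 84.2 and 168 CPM against 47.5, 35.6 and 72.5 CPM (edgeR adjusted p = 7.07e-10). The acute phase protein SAA1 was at 699, 625 and 494 CPM in siNELFA and 280.2, 297 and 194 CPM in siYAP (2.37-fold, edgeR adjusted p = 1.23e-10), and its reads could be shared with close SAA paralogues. CCL20 was 3.67-fold higher from low levels (7.91, 7.17 and 17.7 CPM against 1.72, 1.98 and 5.38 CPM).

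IL11, a cytokine of the IL6 family, was the 1 gene of the list called lower, while 8 of the 26 passed in neither direction. It was at 4.70, 9.81 and 18.5 CPM in siNELFA and 15.8, 26.5 and 56.4 CPM in siYAP, 2.99-fold lower in siNELFA and lower in every pair (log2 -1.58, SE 0.14, edgeR adjusted p = 2.7e-08). With the replicate 3 pair removed, 12 of the inflammatory genes were higher and IL11 remained the 1 lower. Immediate early genes, which respond within minutes to growth factors and stress, split. Of 23 tested, 5 were higher and 2 were lower in siNELFA. IER3 was 1.37-fold higher, ATF3 1.62-fold, and the phosphatases DUSP1 1.37-fold and DUSP5 1.24-fold. DUSP6, the cytoplasmic ERK phosphatase that ERK itself induces, was at 68.2, 83.4 and 72.0 CPM in siNELFA and 105, 145 and 138 CPM in siYAP, without overlap and 1.73-fold lower in siNELFA (edgeR adjusted p = 1.65e-06), and the AP-1 subunit FOSL2 was 1.40-fold lower (edgeR adjusted p = 0.000135). Without the replicate 3 pair 2 of these genes were higher and 2 lower.

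Of 19 genes of the EGF receptor family and the feedback loop on ERK, 1 was higher and 5 were lower in siNELFA, among them the ERK pathway inhibitor SPRED1 (1.38-fold), the phosphatase DUSP4 (1.32-fold) and the ETS factor ETV4 (1.26-fold). The 1 higher gene was the ligand HBEGF, at 71.8, 103 and 123 CPM in siNELFA and 48.6, 65.0 and 67.3 CPM in siYAP (1.63-fold, edgeR adjusted p = 1.29e-05). When replicate 3 was left out, 1 gene of this list was higher and 1 lower. Interferon response genes split as well, with 5 of 27 higher and 4 lower. IFIT2, IFIT3, STAT2 and IRF1 were higher by 1.36-fold, 1.29-fold, 1.34-fold and 1.35-fold, and IFI44L, OAS3 and ISG15 were lower by 3.18-fold, 1.53-fold and 1.28-fold. Excluding replicate 3, 2 of the interferon genes were higher and 2 lower, and without replicate 2 there were 3 and 5.

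**Figure D2:**
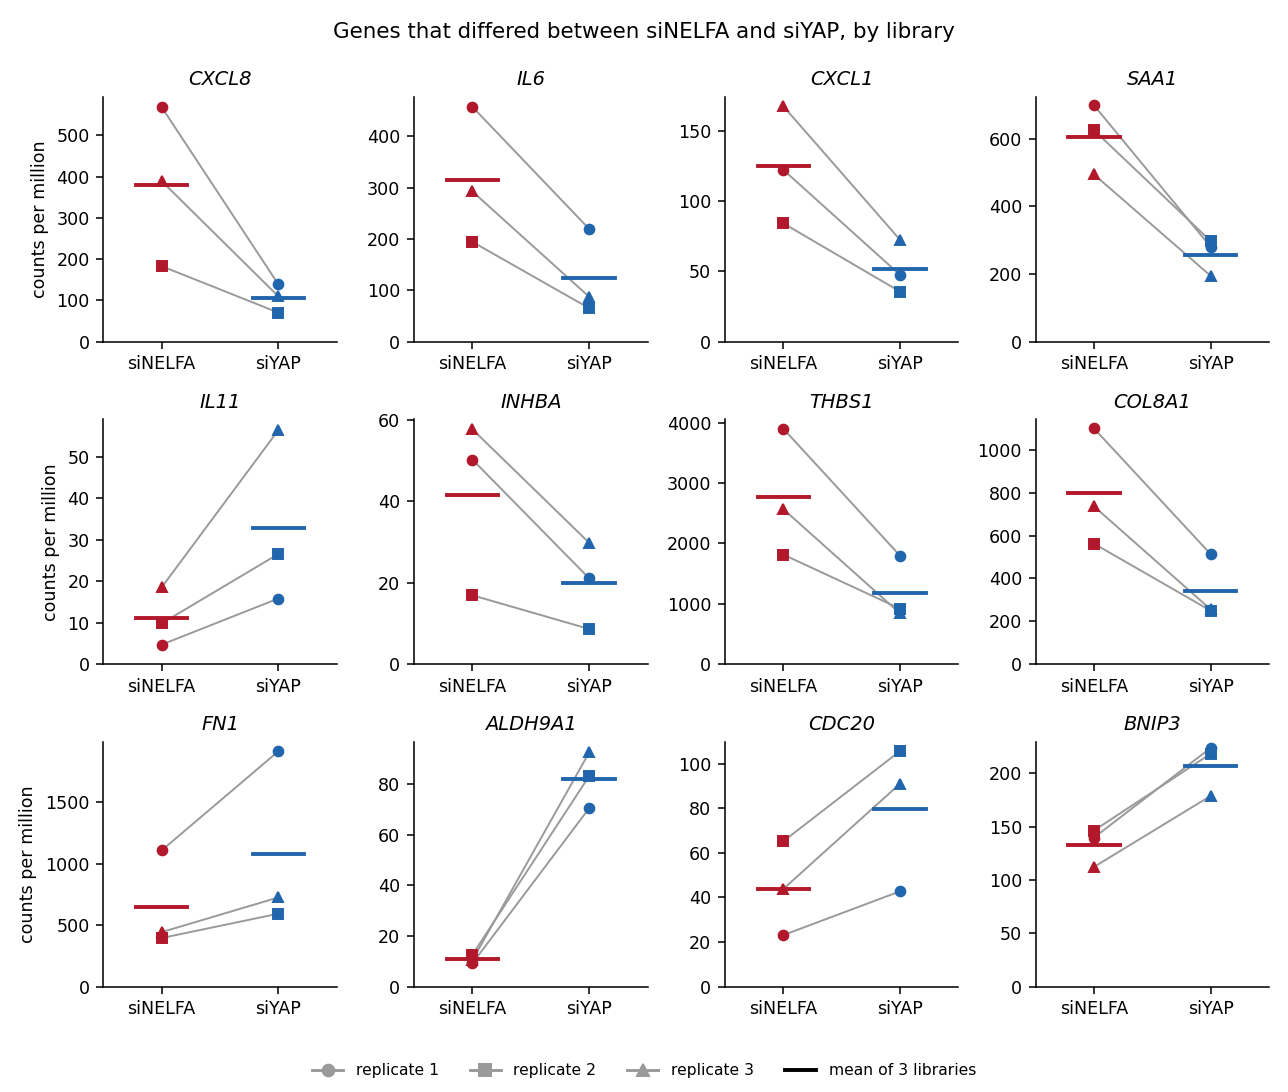
CPM on the y axis (from 0) in the 3 siNELFA (red) and 3 siYAP (blue) libraries for 12 genes described in the text, with grey lines joining the libraries of 1 replicate number and bars at the group means. CXCL8, IL6, CXCL1, SAA1, INHBA, THBS1 and COL8A1 are higher in siNELFA in all 3 pairs, and IL11, FN1, ALDH9A1, CDC20 and BNIP3 are lower.

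TGF-beta pathway genes differed in both directions. Of 27 genes tested, 10 were higher and 6 were lower in siNELFA, with a median log2 fold change of 0.10. The ligand TGFB2 was at 522, 175 and 169 CPM in siNELFA and 174, 62.4 and 40.4 CPM in siYAP. Replicate 1 was far above the others in both groups, and the siNELFA value was the higher in each pair (3.27-fold, log2 1.71, SE 0.10, edgeR adjusted p = 8.79e-12). TGFB2-OT1, a transcript that lies within the span of TGFB2 on the same strand, so that its reads may be those of TGFB2, was 4.30-fold higher. THBS1, a matrix protein that activates latent TGF-beta, was at 3903, 1816 and 2570.2 CPM in siNELFA and 1798, 919 and 842 CPM in siYAP (2.36-fold, edgeR adjusted p = 1.73e-09), and INHBA, an activin subunit, was 2.08-fold higher. The 6 lower genes were all 4 latent TGF-beta binding proteins and the BMP-responsive inhibitors ID1 and ID3. LTBP1 was lower by 1.68-fold, LTBP2 by 1.26-fold, LTBP4 by 1.34-fold and ID1 by 1.53-fold (edgeR adjusted p = 2.34e-05, 0.0251, 0.00335 and 0.00149). Without the replicate 1 pair 11 of the list were higher and 4 lower, and without the replicate 3 pair 7 and 4.

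Matrix genes also differed in both directions. Of 25 collagens and matrix proteins tested, 7 were higher and 3 were lower in siNELFA. COL8A1, a short-chain collagen, was at 1099.9, 562 and 736 CPM in siNELFA and 513, 249 and 255 CPM in siYAP, without overlap (2.41-fold, edgeR adjusted p = 2.41e-10). The basement membrane collagens COL4A1 and COL4A2, which share a promoter region, were 1.85-fold and 1.38-fold higher. The lower genes were COL6A2 (1.34-fold) and COL6A3 (1.45-fold), chains of the microfibrillar collagen VI, and the laminin chain LAMA3 (1.39-fold), and the replicate 2 pair of COL6A3 differed by a log2 of -0.011. Of 14 integrins tested 4 were higher, among them ITGA3 (1.35-fold) and ITGB1 (1.20-fold), and 2 were lower, ITGA2 at 280.4, 232 and 244 CPM in siNELFA and 419.7, 309 and 450.1 CPM in siYAP (1.54-fold, edgeR adjusted p = 1.81e-05) and ITGA10 (2.58-fold, edgeR adjusted p = 0.00109). ITGB2, the leukocyte beta chain and not a member of the list, was 3.86-fold higher at 31.0, 18.2 and 22.4 CPM against 9.58, 2.97 and 6.90 CPM. In replicates 1 and 2 alone, 3 matrix genes were higher and 3 lower, and 2 integrins were higher and 2 lower.

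Markers of epithelial-mesenchymal transition (EMT) were called in both directions. Of 29 tested, 12 were higher and 3 were lower in siNELFA, with a median log2 fold change of 0.16. The higher genes included mesenchymal markers, VIM (1.17-fold), CD44 (1.33-fold), SPARC (1.76-fold) and the protease PLAU (1.47-fold), and also the epithelial tight junction gene CLDN1, at 62.6, 30.3 and 47.7 CPM in siNELFA and 30.3, 12.2 and 17.3 CPM in siYAP (2.42-fold, edgeR adjusted p = 8.13e-08). CDH1, encoding E-cadherin, was called higher (log2 1.69, edgeR adjusted p = 0.000699) from replicate 1 alone. It was at 46.9, 0.803 and 0.00 CPM in siNELFA and 16.2, 0.00 and 0.00 CPM in siYAP, and without that pair it had too few counts to be tested. The 3 lower genes were the mesenchymal products FN1 (fibronectin), at 1109, 396 and 444 CPM in siNELFA and 1916, 594 and 727 CPM in siYAP (1.62-fold, edgeR adjusted p = 1.05e-06), TNC (1.45-fold) and the collagenase MMP1 (1.54-fold). Without the replicate 2 pair 8 of the markers were higher and 4 lower, and without the replicate 3 pair 4 and 3.

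Genes of the actin cytoskeleton were higher in siNELFA wherever they passed the threshold, in 11 of 27 tested, with a median log2 fold change of 0.22. CNN2, a calponin that binds actin filaments, was at 287, 237 and 286 CPM in siNELFA and 125, 139.7 and 122 CPM in siYAP (2.09-fold, edgeR adjusted p = 1.51e-08). MYL9, a regulatory myosin light chain, was at 128, 116 and 124 CPM and 75.6, 60.7 and 57.9 CPM (1.91-fold, edgeR adjusted p = 1.76e-07). Neither gene had overlapping groups. The crosslinkers FLNA and ACTN1 were 1.45-fold and 1.46-fold higher. With the replicate 3 pair removed, 7 of the list were higher and none was lower, and without the replicate 2 pair 12 were higher and 1 lower.

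Genes of proliferation that passed the test were nearly all lower in siNELFA. The groups overlapped for every replication and mitotic gene tested, while they did not overlap for 12.6% of all genes tested. Of 38 genes of DNA replication and S phase tested, 16 were lower and 1 was higher in siNELFA, with a median log2 fold change of -0.27. GINS2, part of the replicative helicase, was at 2.82, 17.5 and 10.2 CPM in siNELFA and 5.56, 23.5 and 23.6 CPM in siYAP (1.79-fold lower, edgeR adjusted p = 0.00199). LIG1, the ligase that joins Okazaki fragments, was 1.37-fold lower (edgeR adjusted p = 0.00212). For both genes replicate 1 was the lowest in its group, and the groups overlapped, but siNELFA was the lower in each pair. The 1 higher gene was RRM2, the small subunit of ribonucleotide reductase (1.27-fold, edgeR adjusted p = 0.0058). Of 42 mitotic genes, which build the spindle and separate chromosomes, 10 were lower and none was higher, with a median of -0.17. CDC20, an activator of the anaphase-promoting complex, was at 23.1, 65.1 and 43.8 CPM in siNELFA and 42.7, 106 and 91.0 CPM in siYAP (1.84-fold lower, edgeR adjusted p = 1.75e-06), and KIF11, BUB1B and ESPL1 were lower by 1.46-fold, 1.47-fold and 1.51-fold. Without the replicate 3 pair 5 replication genes and 5 mitotic genes were lower, without the replicate 1 pair 17 mitotic genes were, and without the replicate 2 pair 10 replication genes were.

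Homologous recombination and Fanconi genes followed, with 6 of 27 lower and none higher in siNELFA and a median of -0.18. The groups overlapped for all 27. FANCD2 was at 32.1, 59.9 and 38.8 CPM in siNELFA and 51.4, 82.9 and 57.9 CPM in siYAP (1.49-fold lower, edgeR adjusted p = 0.000321), BRCA1 was 1.38-fold lower and FANCI 1.33-fold lower. Of 52 histone genes tested, 21 were lower and 1 was higher, with a median of -0.28. The groups did not overlap for 1 of the 52. HIST2H2AC was at 25.6, 54.2 and 44.2 CPM in siNELFA and 46.7, 100.4 and 76.9 CPM in siYAP (1.80-fold lower, edgeR adjusted p = 1.7e-06), HIST1H4C was 1.57-fold lower and H2AFX 1.40-fold lower. The variant gene H3F3B was 1.30-fold higher while H3F3A, which encodes the same protein, was 1.58-fold lower. Histone genes are a family of near-identical copies, so the split of reads among them is uncertain. When replicate 3 was left out, 4 recombination genes and 8 histone genes were lower, and without the replicate 2 pair 3 and 14.

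Genes that halt the cell cycle or respond to p53 did not share one direction, with 6 of 23 higher and 3 lower in siNELFA. MDA-MB-231 cells carry a mutant p53, as background. CDKN1A (p21), an inhibitor of cyclin-dependent kinases, was at 169, 167 and 245 CPM in siNELFA and 129, 95.5 and 156 CPM in siYAP (1.53-fold, edgeR adjusted p = 2.96e-05). GADD45A and GADD45B, growth arrest and stress genes, were 1.91-fold and 1.92-fold higher. DDB2, a sensor of UV damage, was 1.75-fold lower, MDM2 1.30-fold lower and PHLDA3 1.47-fold lower. Excluding replicate 3, 4 were higher and 2 lower, and without the replicate 1 pair 6 and 2.

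Of the genes of sterol and fatty acid synthesis, 14 of 30 were higher and none was lower in siNELFA, with a median of 0.26. MSMO1, a demethylase of the sterol pathway, was at 137, 64.9 and 56.4 CPM in siNELFA and 68.7, 41.2 and 46.7 CPM in siYAP (1.56-fold, edgeR adjusted p = 0.000291). Its groups overlapped, and siNELFA was the higher in each pair. INSIG1, a sterol sensor, and the enzyme HMGCS1 were 1.46-fold and 1.49-fold higher. Glycolysis and hypoxia genes leaned the other way, with 4 of 31 higher and 12 lower and a median of -0.12. The lower genes included several induced by hypoxia. BNIP3, a mitophagy receptor, was at 139.8, 146 and 112 CPM in siNELFA and 224, 219 and 179 CPM in siYAP (1.56-fold, edgeR adjusted p = 4.85e-06), PFKFB4 was 1.78-fold lower, the kinase PDK1 1.60-fold and CA9, a carbonic anhydrase, 3.08-fold. The higher genes included P4HA2 (1.40-fold), ADM (1.44-fold) and BNIP3L (1.29-fold), which hypoxia also induces. In replicates 1 and 2 alone, 9 sterol genes were higher, and 2 glycolysis and hypoxia genes were higher and 7 lower, and without the replicate 1 pair 10 sterol genes were higher and 2 lower.

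Among targets of ATF4 and the unfolded protein response, 10 of 28 were higher and 2 lower in siNELFA, with a median of 0.17, and 16 passed in neither direction. HSPA5 (BiP), the chaperone of the endoplasmic reticulum, was at 2118, 1632 and 1692 CPM in siNELFA and 1502, 1095 and 1070.2 CPM in siYAP, without overlap (1.49-fold, edgeR adjusted p = 9.52e-06). SEL1L, which works in the clearance of misfolded proteins, was 1.48-fold higher. The amino acid transporter subunits SLC7A5 and SLC3A2, which form one heterodimer, were 1.68-fold and 1.58-fold higher, while SLC7A11, the partner of SLC3A2 in cystine import, was 1.46-fold lower and DDIT4 1.34-fold lower. Among antioxidant and ferritin genes 3 of 24 were higher and 5 lower. The 3 higher were TXNRD1 (1.42-fold) and the ferritin chains FTH1 (1.41-fold) and FTL (1.49-fold), whose reads could be shared with many pseudogenes. With the replicate 3 pair removed, 7 ATF4 and unfolded protein genes were higher and 1 was lower, and 2 antioxidant genes were higher and 2 lower.

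Proteasome subunits were higher in 16 of 37 genes tested and lower in none, with a median of 0.24. PSMB1 and PSMB7, of the catalytic core, were both 1.31-fold higher, and PSMD8 and PSMD13, of the regulatory particle, 1.34-fold and 1.36-fold. Of 82 cytosolic ribosomal proteins 12 were higher and 2 lower (median 0.14). Of 79 respiratory chain subunits 8 were higher and 3 lower (median 0.11, and a share of higher genes near the 8.33% of all genes). Of 34 lysosomal and V-ATPase genes 12 were higher and 3 lower (median 0.15). Called either way were 17.1% of the ribosomal and 13.9% of the respiratory genes, near the 15.8% of all genes tested. Among protein-coding genes in the highest of 5 bins of mean count, 22.3% were higher and 8.75% lower. COX6C, a subunit of cytochrome c oxidase, was among the 3 lower respiratory genes. It was at 38.7, 34.2 and 24.1 CPM in siNELFA and 65.6, 52.1 and 50.2 CPM in siYAP (1.75-fold lower, edgeR adjusted p = 1.63e-05). Of 18 heat shock genes 5 were higher and 1, HSP90AA1 (1.21-fold), was lower. HSPA1B was 1.62-fold higher, and its reads could be shared with its near-identical neighbour HSPA1A. None of 5 metallothioneins passed, with log2 fold changes of 0.20 for MT2A and 0.10 for MT1E (edgeR adjusted p = 0.0954 and 0.57). MT2A was the 1 member with an unadjusted edgeR p under 0.05, and DESeq2 and limma-voom called none either. Without the replicate 3 pair only 2 proteasome, 1 ribosomal, 1 respiratory, 2 lysosomal and 2 heat shock genes were higher. Without the replicate 2 pair 22 ribosomal and 7 lysosomal genes were, and limma-voom called 20 ribosomal genes higher.

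Several of the largest single differences belonged to no list or stood alone in theirs. ALDH9A1, an aldehyde dehydrogenase of carnitine and polyamine metabolism (chr1:165662216-165698562), was at 9.24, 12.6 and 10.5 CPM in siNELFA and 70.4, 83.1 and 92.4 CPM in siYAP. It was 7.61-fold lower in siNELFA (log2 -2.93, SE 0.12, edgeR adjusted p = 1.21e-14), further than NELFA itself. Among 15 aldehyde dehydrogenases tested 6 were lower, also ALDH16A1 (1.97-fold), ALDH3A2 (1.48-fold) and ALDH18A1 (1.25-fold), and 2 were higher, ALDH1A3 (1.43-fold) and ALDH1B1 (1.26-fold), while without the replicate 3 pair 3 were lower and 1 higher, and without the replicate 1 pair 5 and none. The median of these 15 was -0.29, but 0.06 without the replicate 2 pair. The largest lower difference among genes averaging at least 50 counts was that of a Y_RNA copy (ENSG00000206990, chr1:165662585-165662687) that lies within the span of ALDH9A1 on the same strand, at 0.548, 0.516 and 0.228 CPM and 5.27, 7.29 and 8.25 CPM, so its reads may be those of ALDH9A1. EI24, a membrane protein of the endoplasmic reticulum (chr11:125569280-125584684), was at 35.8, 41.0 and 35.8 CPM in siNELFA and 105, 122 and 128 CPM in siYAP (3.15-fold lower, edgeR adjusted p = 1.65e-11). NGFR, the low-affinity neurotrophin receptor, was 8.77-fold lower at 1.25, 1.26 and 0.228 CPM against 10.2, 5.73 and 7.45 CPM (edgeR adjusted p = 2.17e-06).

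TMEM19, a membrane protein, was 2.92-fold lower in siNELFA at 4.70, 8.95 and 10.4 CPM against 14.0, 25.3 and 30.9 CPM, and PDK4, a mitochondrial kinase that turns off pyruvate oxidation, was 2.79-fold lower at 5.64, 5.91 and 4.89 CPM against 19.9, 14.7 and 12.2 CPM. CAPN11, KIF21B, MPP2, METTL7A and RP11-60A8.1 were lower by 3.93-fold, 3.04-fold, 2.92-fold, 2.83-fold and 3.12-fold, all at under 15 CPM in every library. On the other side, SNORD3B-2, a copy of the U3 small nucleolar RNA, was 8.39-fold higher in siNELFA at 9.94, 67.4 and 79.8 CPM against 1.25, 7.29 and 10.2 CPM. Its groups overlapped, since siYAP replicate 3 was above siNELFA replicate 1, and U3 genes are near-identical copies. The long noncoding RNAs UCA1 and SFTA1P were 3.33-fold and 3.58-fold higher. The protocadherin FAT3, the teneurin TENM1 and TMEM236 were 4.10-fold, 3.45-fold and 3.46-fold higher from levels under 5 CPM in every siYAP library.

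**Figure D3:**
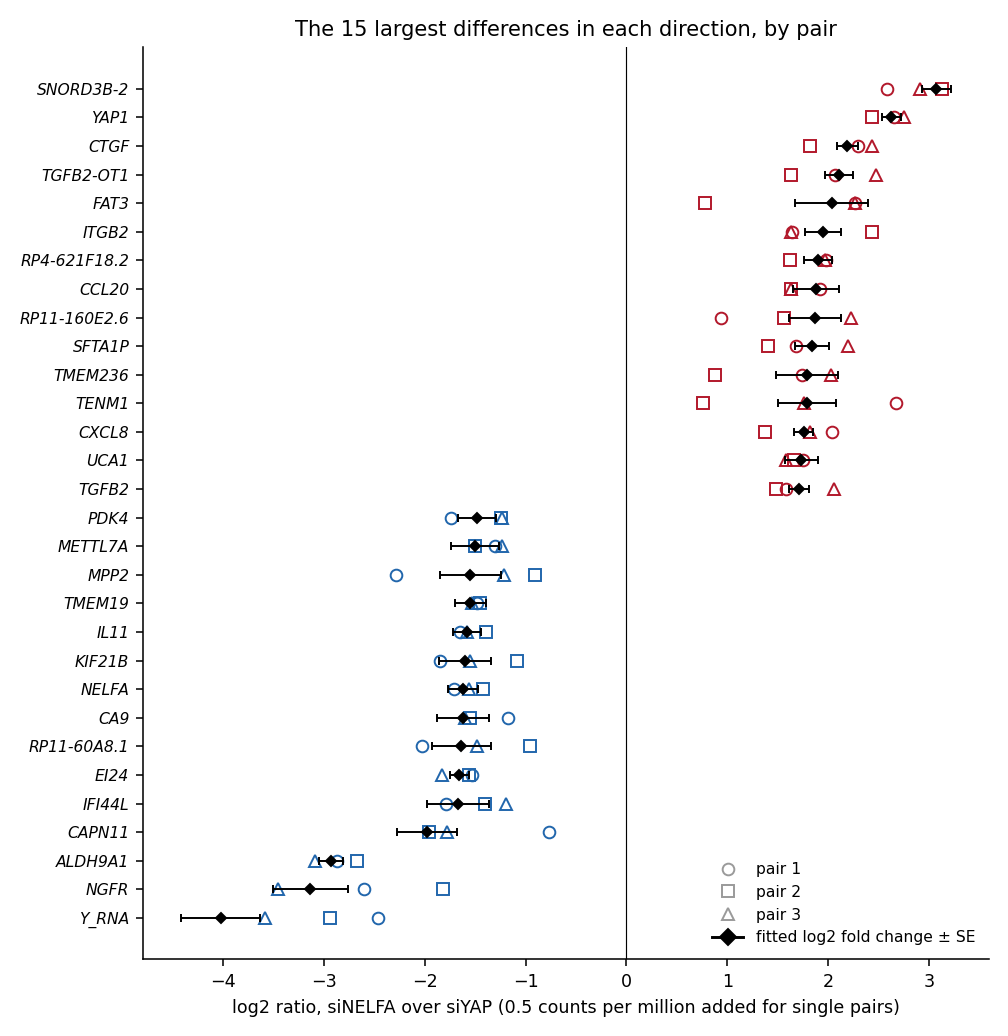
The 15 genes with the largest difference in each direction among those called, moving one way in all pairs and averaging at least 50 counts, with log2 ratio of siNELFA over siYAP on the x axis, open symbols for each pair (0.5 CPM added) and black diamonds with bars for the fitted value and its SE. SNORD3B-2 and YAP1 lead the higher genes (3.07 and 2.62), and Y_RNA, NGFR and ALDH9A1 the lower (-4.02, -3.13 and -2.93).

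The direction of the difference followed the base composition of the transcripts. Among protein-coding genes the median GC content of the longest transcript was 44.7% for genes higher and 51.7% for genes lower in siNELFA, against 48.0% for all tested. In 5 equal bins of genes from the least to the most GC, the median log2 fold change went from 0.083 to -0.082. When the trend of each library on GC content was removed, 2587 genes passed, 2322 of them among the 2721, and the lists kept most of their counts, with 15 YAP and TEAD targets and 15 inflammatory genes higher, 14 sterol genes higher, 17 replication genes and 18 histone genes lower. By the median, transcript length moved less with the difference, at 0.027 in the bin of the shortest and -0.0076 in that of the longest. The share of genes called lower still rose with length, from 5.99% in the bin of the shortest to 12.5% in that of the longest. The share called higher was 9.53% and 10.5% in the same bins. What part length had in the calls was not tested. Genes with few counts leaned lower in siNELFA, with a median of -0.14 in the bin with the fewest counts and 0.078 in that with the most. Thinning each pair to an equal total left 2695 calls. What part GC content had in the calls was not tested beyond the fit without its trend.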

How the data were processed

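Total RNA of the MDA-MB-231 line had been depleted of rRNA and sequenced as strand-marked libraries. The authors aligned reads to GRCh38 (Ensembl release 87) with STAR in 2-pass mode and deposited raw counts per gene from featureCounts, and, in other tables, TPM values per library, with Cufflinks among the tools named. FPKM values were not used here, and 0 columns lacked a sample.

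The 6 siNELFA and siYAP libraries were fitted without the controls. Genes were kept by the expression filter of edgeR (a minimum count of 10, a minimum total of 15, in at least 70% of a group), leaving 17257 of 58051. Counts were scaled by TMM and tested with the quasi-likelihood test of edgeR 4.0.16 in R 4.3.3, with replicate number as a block and Benjamini-Hochberg adjustment at 0.05. CPM values are counts over the library's TMM-scaled total. Pairing was checked on deviations from group means over 12994 genes, and same-numbered libraries correlated by 0.891, 0.702 and 0.820. Replicate numbers come from the sample labels. Replicate 1 correlated negatively (-0.691 to -0.802) with replicates 2 and 3 of the other group, and replicates 2 and 3 with each other by 0.485 and 0.508. The deviations within a group cancel out for each gene, so negative values between different numbers are in part built in. They are not separate evidence on the pairing.

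Alternatives were no block, DESeq2 1.42.0, RLE factors, no filter, a mean of at least 50 counts, limma 3.58.1 with voom, limma on log2(TPM + 1) and log2(TPM + 0.1), each replicate or library left out, thinned counts, protein-coding genes only and removal of each library's GC trend. The last 3 were added after seeing the data. The 93 gene IDs that stand on several lines of the TPM table were left out of those fits. The script for the fits was tested on simulated data.

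Genes named were NELFA, YAP1, CTGF, CYR61 and ANKRD1; the 15 largest differences each way among calls of one direction in all pairs with a mean of at least 50 counts; up to 4 called members of each list each way by smallest p, or 2 members where none was called; and any tested member of the pausing, Hippo and YAP target lists. The members and lists were chosen with earlier results of these data known. Other genes named are marker genes, and a few genes that the rule would name are not reported here. Positions and GC content (longest transcript) came from GENCODE v44 for 17023 of the genes, and promoters from RefSeq for 11242. Counts limit precision most at low levels. Figures were drawn with matplotlib 3.10.9 in Python 3.11.15.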

Additional observations from a re-analysis of the deposited data

How the results depend on the processing

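In the fits with the replicate block on counts, the 2721 calls kept their direction wherever they were called again, and NELFA and YAP1 stayed past the threshold. RLE factors gave 2751 calls, no filter 2719, a mean of at least 50 counts 2927, limma-voom 2922, thinned counts 2695, protein-coding genes only 2714 and the removal of GC trends 2587. DESeq2 gave 1834, with 1005 higher and 829 lower. Leaving out 1 pair gave 1028 to 2630 calls, 562 to 1389 higher and 466 to 1254 lower, the lowest without replicate 3, and the cause was not tested. Without the replicate block 2 genes passed, 1 higher and 1 lower, and NELFA did not (log2 -1.63, edgeR adjusted p = 0.453). Leaving out 1 library from that unpaired fit gave 0 to 2 calls, 0 to 1 in each direction, with log2 fold changes of -1.75, -1.73, -1.67, -1.66, -1.50 and -1.44 for NELFA and of 2.54, 2.65, 2.67 and 2.67 for YAP1 in the 4 of these 6 fits where its call was lost. Among the 6, some list medians changed sign or came near 0, with DNA replication at 0.074 without siNELFA replicate 1 and 0.0023 without siYAP replicate 2, Fanconi genes at 0.021 and 0.046, mitotic genes at -0.0096 and 0.010 and histones at -0.024 and 0.069. Without siNELFA replicate 1 the medians of EMT markers (-0.016), TGF-beta (-0.037), p53 (-0.060) and lysosomal (-0.064) genes also turned negative. The aldehyde dehydrogenase median was 0.072 without the block and -0.046 with limma-voom.

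On TPM with the block, limma called 0 genes at either pseudocount, 0 higher and 0 lower, with 2983 genes at an unadjusted p under 0.05 for log2(TPM + 1) and 2830 for log2(TPM + 0.1). There YAP1 was at 2.32 and 2.38 and NELFA at -2.09 and -2.25 (limma adjusted p from 0.234 to 0.271). TPM moved the median of all genes to -0.115 and -0.136. With log2(TPM + 1), list medians turned negative for the Hippo (-0.01), TGF-beta (-0.06), immediate early (-0.10), p53 (-0.16) and pausing (-0.11) lists. Relative to the median of all genes, these were 0.10, 0.05, 0.01, -0.04 and 0.0012, against 0.21, 0.10, 0.16, 0.06 and 0.05 on counts, and the cause was not tested. The respiratory (-0.030), metallothionein (-0.086) and ribosomal (-0.0003) medians also turned negative with log2(TPM + 1), and that of EMT markers (-0.155) with log2(TPM + 0.1). On TPM, RRM2 reversed to -0.13 and -0.14. In unpaired fits that left out 1 library, RRM2 reached -0.11 and -0.066, CDH1 -3.68, CD14 -0.40, RBMS3 -0.019, IGFBP3 0.81, LAMA3 0.52, COL6A2 0.13 and LTBP4 0.014, against the sign given with the block. Low counts limit the least expressed genes, as 1.63% of the protein-coding genes in the lowest of 5 bins of mean count were called higher and 5.83% lower. In the highest bin 22.3% were called higher and 8.75% lower.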

Other observations

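Of the protein-coding genes tested 19.3% were called, against 15.8% of all genes tested (8.33% higher and 7.44% lower). Of 51 small nuclear RNA genes 8 were higher and 0 lower in siNELFA (15.7% called), at a median log2 fold change of 0.28. Of 174 small nucleolar RNA genes 11 were higher and 0 lower, with a median of 0.16. The 6.32% of small nucleolar RNA genes called higher was below the share of all genes called higher. These short RNAs are near-identical copies in part, so the split of reads among them is uncertain. Of 829 antisense genes 2 were higher and 23 lower, with a median of -0.11, and of 756 long intergenic RNAs 23 were higher and 36 lower. The shares called, 3.02% and 7.80%, were below that of all genes tested. Of 70 microRNA genes edgeR called none. No test of the difference between classes was made.

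E2F elements (TTTNGCGC, both strands) were in 10 of the 34 promoters of tested replication genes that could be matched (29.4%). They were in 4 of the 15 of replication genes called lower (26.7%) and in 2.54% of the promoters of tested protein-coding genes. An SREBP element (TCACNCCAC), searched in the same way, was in 1 of 23 promoters of tested sterol and fatty acid genes. It was in 0 of the 10 of those called higher and in 0.919% of the promoters of tested protein-coding genes.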
